A study of Mus musculus with 5 samples.

Results

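*Isl1* encodes ISL LIM homeobox 1, a transcription factor with LIM domains and a homeodomain. It is 1 gene of the 32285 counted in each library, found by its symbol, and it was chosen by its measured level, which earlier work on these data had shown to differ between the penis and the limbs. Its levels across tissues and cell types are therefore given below as a description, with no test. LIM homeodomain factors bind DNA through the homeodomain and act in complexes that the bridging protein Ldb1 and its partners hold together through the LIM domains. In the mouse embryo, *Isl1* is known for its place at the start of the hindlimb bud, ahead of *Hand2* and Hedgehog signaling, and for its expression in the mesenchyme of the genital tubercle. It is also known from motor and sensory neurons, heart progenitors and the endocrine pancreas.

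The single cell RNA libraries were 3 of penis from male mice at postnatal day 6 (P6), 1 of forelimb and 1 of hindlimb from male embryos, for which the labels give 15 days after conception. All mice were of 1 inbred background, C57BL/6N per the labels and C57BL/6J per the methods, and none was treated. Per the methods, the prepuce was removed and the glans was the target, and the 3 penises came from 2 litters. Which mouse or litter a penis library came from, and whether the limb libraries share or pool embryos, is not given in the sources used here. Tissue and age differ together between penis and limb, as do sequencing depth and the limits of the cell filter, and these cannot be told apart. Whether penis and limb libraries were prepared together is not given either. With 1 library per limb there is no replicate error. The study compared these tissues at the onset of ossification, to find what sets gene expression in the penis apart from that in the limbs.

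After filtering, the penis libraries held 5708 to 7085 cells with a median of 8792 to 9909 UMIs per cell, the forelimb library 22057 cells with 5358 and the hindlimb library 20514 cells with 6057. A UMI is a molecular tag that counts a captured RNA molecule once. Cell types were assigned by gates, that is, by how many genes of a fixed marker list had a UMI in a cell. A cell was called mesenchyme with at least 5 of 10 mesenchyme markers and no other gate, and other types needed about the same share of their lists. Mesenchyme cells carried a median of 9 of these markers in the penis and 8 in the limbs. The 1027 penis cells of the chondrocyte gate held *Col2a1*, the main cartilage collagen, at 1278 to 1687 CPM, the gene's UMIs per 1000000 UMIs of the gated cells. That is far above penis mesenchyme (5.47 to 7.77 CPM), a gap that the gate itself favors, since *Col2a1* is one of its markers. It is below the chondrocytes of the limbs (3951 CPM in hindlimb and 4519 in forelimb). All markers of this gate were lower in the penis chondrocytes than in those of the limbs. *Matn4* had 31.4 to 47.1 CPM against 350.0 and 457.0, and *Mia* 58.2 to 67.2 against 632.1 and 601.4. Cells that passed gates of unlike types or tied for the best gate (216 to 335 per penis library, 1287 forelimb and 1121 hindlimb cells) were set aside. No doublet caller was run. Cells that passed several of the chondrocyte, bone-forming, tendon, pericyte and smooth muscle gates went to the gate with the largest share of its markers. Such cells could pass the mesenchyme gate too. Cells with several epithelial gates were also kept under the best one. Among filtered cells, forelimb and hindlimb shared 124 barcodes and other pairs of libraries 9 to 42. No limb cell with an *Isl1* UMI had the barcode of a filtered penis cell. With so few shared barcodes and so few such limb cells, that count cannot tell whether RNA carried over between libraries.

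*Isl1* (ENSMUSG00000042258) lies on the minus strand at chr13:116298281-116309689 in mm10 (GRCm38). The annotation gives 5 transcripts, of which Isl1-201 has 6 exons and 1047 coding bases, a 5′ untranslated region at 116309423-116309689 and a 3′ untranslated region at 116298281-116299482, which holds the end that a 3′ library reads. No other gene overlaps it, so its UMIs cannot be shared with a neighbor. The 250 bases before its RefSeq start site (chr13:116309689-116309938, minus strand, GRCm38.p6) are shown as the region from which the gene is transcribed. Capitals mark the letters CCAAT, a common promoter element.

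Isl1 promoter: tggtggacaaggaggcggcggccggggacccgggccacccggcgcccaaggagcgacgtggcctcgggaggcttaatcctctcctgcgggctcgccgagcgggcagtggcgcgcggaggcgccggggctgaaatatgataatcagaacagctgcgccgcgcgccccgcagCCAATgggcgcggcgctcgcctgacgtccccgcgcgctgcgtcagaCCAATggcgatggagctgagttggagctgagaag

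CCAAT occurred 2 times, 80 and 34 bases before the start. Both strands were searched. It was found in 33.8% of the 32851 promoters of this length, so it is not rare. TATAAA and GGGCGG were not in this window (12.4% and 32.7% of promoters). The window was rich in G and C, at 71.2% against a median of 52.4% over all promoters, and held 33 CG dinucleotides against a median of 6. A match of letters is a description and does not show that a factor binds there.

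*Isl1* was detected throughout the penis libraries and was close to absent from the forelimb. Over all filtered cells it stood at 196.6, 196.2 and 201.6 CPM in the 3 penis libraries, with a UMI in 67.1, 66.1 and 66.3% of cells. The hindlimb held 405 *Isl1* UMIs in 305 cells, 2.72 CPM (95% exact Poisson interval 2.46 to 3.00) and 1.49% of cells (exact binomial interval 1.33 to 1.66%). The forelimb held 40 UMIs in 40 cells, 0.280 CPM (0.200 to 0.382) and 0.181% of cells (0.130 to 0.247%). The penis libraries lay close together and far above both limbs, and the hindlimb lay 9.71 times above the forelimb (interval of the ratio 7.01 to 13.8). These intervals cover counting error only and say nothing of the spread between embryos.

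Within the penis, *Isl1* was high in connective tissue, mural cells and keratinocytes and low in endothelial, white blood and Schwann cells. Mesenchyme, the stroma that made up 11911 of the filtered penis cells, had 245.5, 246.0 and 249.97 CPM (mean 247.2 ± 2.44, SD, n = 3 libraries), with a UMI in 83.5 ± 0.895% of cells. Smooth muscle, the contractile cells of vessel walls and erectile tissue, had 243.2 ± 20.8 CPM, and its libraries (219.3 to 255.5) overlapped those of mesenchyme and lay above those of pericytes. Pericytes, which wrap small vessels, had 183.8 ± 15.5 CPM and tendon cells 177.2 ± 24.5, and these neighbors overlapped too. Chondrocytes had 161.3 ± 2.22 CPM (159.1 to 163.5), within the range of tendon cells (158.1 to 204.8). Keratinocytes, the epithelial cells of the skin, had 146.0 ± 9.18 CPM (135.4 to 151.3), below every chondrocyte value, with a UMI in 50.6 ± 3.83% of cells. Bone-forming cells numbered 32 in all, and their 3 values (55.6 to 186.5 CPM) spanned most of these levels. The 22 urethral cells had 89.2 ± 22.0 CPM, and the cells without a gate 143.0 ± 6.55 CPM.

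The other types with at least 100 cells lay far lower. Blood vessel endothelial cells had 2.82, 5.83 and 5.09 CPM, white blood cells 2.85, 3.92 and 5.01 CPM, and Schwann cells, which ensheathe nerves, 5.69, 3.01 and 2.72 CPM. These levels overlapped one another. Other rare types were spread more widely. The 13 red blood cells had 53.8, 62.8 and 155.3 CPM from 2 *Isl1* UMIs in each library, the 17 mast cells 92.8, 0 and 0 from 1 UMI in all and the 45 lymphatic endothelial cells 0 to 11.5, and the 2 melanocytes held no *Isl1* UMI. Over the endothelial, white blood and Schwann cells of the 3 libraries, *Isl1* stood at 1.09 to 2.37% of the mesenchyme level of the same library. The mesenchyme genes *Pdgfra*, *Prrx1* and *Twist1*, which these types should lack, stood in them at 0.360 to 3.14% of their own mesenchyme levels. The share of *Isl1* lay above all 3 of these genes in Schwann cells of library 1 (2.32%) and in endothelial cells of libraries 2 (2.37%) and 3 (2.04%), and not in the other 6 pairs of type and library. *Fbln1* (1.31 to 4.71%) and *Col1a1* (1.73 to 32.8%) reached higher shares. A UMI was found in 3.98 ± 1.03% of endothelial cells (median depth 8632 to 9227 UMIs) against 83.5% of mesenchyme cells (9073 to 10256 UMIs).

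**Figure D1:**
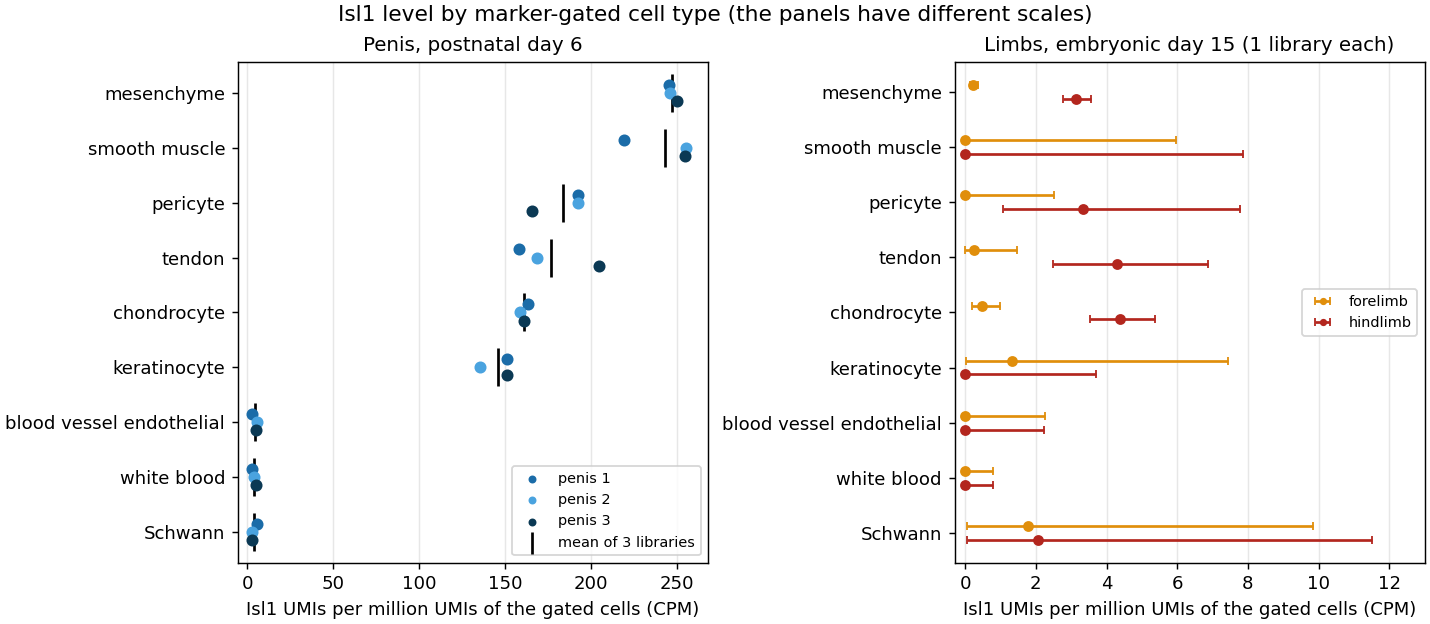
*Isl1* level (CPM, x axis) by marker-gated cell type (y axis), left for the 3 penis libraries with their mean as a bar, right for the forelimb and the hindlimb with exact 95% Poisson intervals, on a smaller scale. The penis mesenchyme points lie between 245.5 and 249.97 CPM, whereas no limb type plotted exceeds 4.38 CPM.

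In the limbs *Isl1* was low in every type plotted, and endothelial and white blood cells of both limbs held no *Isl1* UMI. Forelimb mesenchyme held 17 *Isl1* UMIs in 11992 cells (0.226 CPM, interval 0.132 to 0.362) and forelimb chondrocytes 7 in 2314 cells (0.479 CPM). Hindlimb mesenchyme held 240 UMIs in 181 of 11051 cells (3.14 CPM, 2.76 to 3.57) and hindlimb chondrocytes 94 UMIs in 70 of 3002 cells (4.38 CPM, 3.54 to 5.36). The hindlimb was above the forelimb in both types, by 13.9 times in mesenchyme (8.50 to 24.3) and 9.14 times in chondrocytes (4.27 to 23.4). The mean of the penis mesenchyme was 78.6 times the hindlimb level and 1093 times the forelimb level.

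Counted per cell, the penis mesenchyme held a median of 2 *Isl1* UMIs and up to 16, and 16.5, 15.0 and 13.1% of cells held at least 5. No forelimb mesenchyme cell held more than 1, and the highest hindlimb cell held 6. When each penis mesenchyme cell was thinned to 4000 UMIs, 60.2, 60.8 and 60.1% of cells kept an *Isl1* UMI. If all cells shared a single level, a Poisson draw would leave 63.3, 64.2 and 63.2% with one. The variance of the thinned counts was 1.23, 1.21 and 1.19 times the mean, where equal cells would give 1. A cell without an *Isl1* UMI at this depth is thus often one in which none was drawn, and the classes with and without one, compared below, are not cells that do and do not express the gene.

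Parts of the penis mesenchyme, split by a UMI of both genes of a pair, differed in *Isl1* level. It was highest in cells with *Srd5a2*, which encodes the enzyme that makes dihydrotestosterone, and the transcription factor gene *Sim1* (293.1 ± 6.33 CPM, SD, n = 3, 1824 cells, against 238.4 ± 2.66 in the others). Cells with *Angpt2* and the chemokine gene *Ccl19* had 283.1 ± 2.50 CPM (2620 cells) against 235.4 ± 4.47. Cells with *Pi16* and *Clec3b*, markers of a fibroblast type found around vessels and in fascia, had the lowest level of the larger sets (196.3 ± 9.12 CPM, 1227 cells) against 254.4 ± 1.25. The libraries did not overlap in these 3 splits.

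The posterior limb and genital genes *Hoxa13* and *Hoxd13* marked 2239 cells at 256.0 ± 7.76 CPM against 244.8 ± 3.48. The level with both genes was higher in each library (248.2 against 244.7, 263.7 against 241.4 and 256.1 against 248.3 CPM), while the groups overlapped across libraries. Cells with the cartilage genes *Sox9* and *Col9a3* were lower and more variable (217.0 ± 24.6 against 248.6 ± 3.59), with no overlap. Dividing cells, marked by *Mki67* and *Top2a*, had 216.5 ± 27.1 CPM against 249.1 ± 4.12. By library these were 211.3 against 247.5, 245.9 against 246.0 and 192.4 against 253.8 CPM, so library 2 showed almost no difference. Only 24 cells held both bone genes *Runx2* and *Sp7*, at 171.4 ± 49.4 CPM. With 3 pairs of values the smallest two-sided p of an exact permutation test is 0.25, and none was run.

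**Figure D2:**
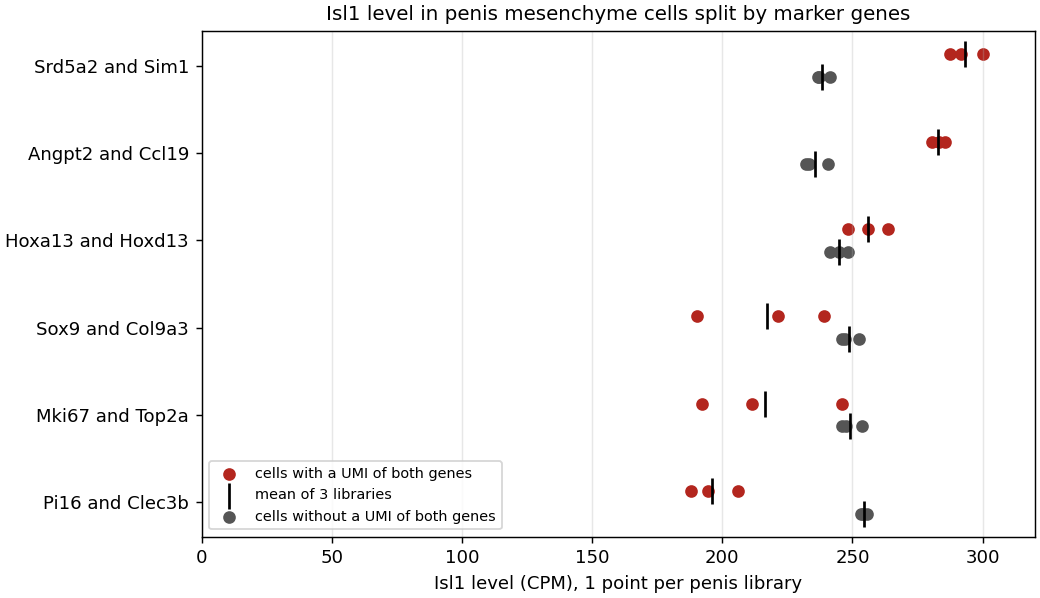
*Isl1* level (CPM, x axis, from 0) in penis mesenchyme cells with (red) and without (gray) a UMI of both genes named on the y axis, 1 point per library and a bar for the mean of 3. The red points lie right of the gray ones for *Srd5a2* with *Sim1* and for *Angpt2* with *Ccl19*, and left of them for *Pi16* with *Clec3b*.

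Likeness to *Isl1* was measured for 12307 genes as Pearson's r on log2(CPM + 1) over 49 sums of a gated type and a library, given as a description because the sums share libraries, depth and gates. Among the 8 genes with the highest r were *Tnfaip8l3* (0.89), *Gm17167*, *Eya1*, *Agt* and *Trim9* (0.88 each), *Gm49171* and *Srd5a2* (0.87 each). *Eya1* encodes a transcription cofactor and *Agt* angiotensinogen. *Eya1*, *Agt* and *Srd5a2* had high levels in penis mesenchyme (234.4, 87.5 and 89.1 CPM) but not in keratinocytes (34.0, 1.77 and 1.89 CPM), where *Isl1* was high. *Tnfaip8l3* had 26.4 CPM in penis mesenchyme and 23.6 in penis keratinocytes, against 1.87 in penis endothelial cells, 3.71 in forelimb and 4.10 in hindlimb mesenchyme.

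The sums fell into separate groups, so such an r mostly reads the gap between them. *Isl1* ran from 135.4 to 255.5 CPM in the 18 penis sums of connective, mural and keratinocyte types and from 0 to 5.83 CPM in the 31 others. Within the penis alone (27 sums), *Ror2*, which encodes a Wnt5a receptor, came first (0.99), and *Hs6st3* and *Irx5* were among the next (0.97 each). The gap is present here too, since 9 of these sums had 2.72 to 5.83 CPM of *Isl1*. *Ror2* had 106.3 CPM in forelimb and 116.9 in hindlimb mesenchyme, near its 121.2 CPM in penis mesenchyme. It thus followed *Isl1* across the gap between penis cell types but not across tissues.

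To place *Isl1* among its partners and its pathway, the mesenchyme sums of the 3 penis libraries were compared with those of the 2 limbs (edgeR quasi-likelihood test, Benjamini-Hochberg adjusted p of at most 0.05 and at least a 1 unit log2 change). Of 20052 genes tested, 13.3% were higher and 13.8% lower in the penis, with a median log2 fold change of 0.01. Forelimb and hindlimb were taken as 1 limb group, so the spread within it is a difference between tissues and not between replicates. Each list below is read against those shares. The lists were chosen with earlier results known.

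Of 19 LIM homeobox and LIM complex genes tested, 3 rose and 6 fell in the penis. *Isl2*, the closest relative of *Isl1*, was at 7.999, 7.73 and 7.96 CPM in the penis, with 0.0931 in forelimb and 0.197 in hindlimb mesenchyme (log2 fold change 5.72 ± 0.205 SE, adjusted p = 5.5e-08), so it rose with *Isl1* at a far lower level. The limb genes *Lmx1b*, which sets the dorsal side, *Lhx2* and *Lhx9* fell (log2 fold changes -6.41, -6.00 and -4.01), from 13.3 to 33.1 CPM in the limbs to at most 1.02 in the penis. *Ldb1*, the bridging factor, was 57.2, 50.8 and 56.1 CPM in the penis against 49.7 and 53.9 (log2 fold change 0.05 ± 0.063, adjusted p = 0.46). *Lmo4*, which competes for Ldb1, rose to 370.9 to 372.1 CPM from 89.3 and 99.8 (log2 fold change 1.95). The list's median log2 fold change was -0.62.

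Of 24 hindlimb and genital patterning factors, 13 rose and 3 fell (median log2 fold change 1.07). *Tbx4*, the T-box gene of hindlimb and genitalia, was at 141.4, 139.1 and 149.1 CPM in the penis, against 4.98 (forelimb) and 36.6 (hindlimb) (2.76 ± 0.605, adjusted p = 0.0028). It rose by 4.81 against the forelimb alone and by 1.95 against the hindlimb alone. *Eya1* (4.94) and the homeobox genes *Alx4* (4.44) and *Alx1* (3.82) rose, and *Tbx15* (-2.91) and *Hand1* (-6.27, at most 1.06 CPM in any library) fell. *Pitx1*, the hindlimb identity gene, stood at 51.7 to 52.7 CPM in the penis, 88.8 in the hindlimb and 0.732 in the forelimb (0.20 ± 1.02, adjusted p = 0.87). *Tbx5*, the forelimb counterpart of *Tbx4*, was at 57.3 to 60.8 CPM in the penis, against 69.5 (forelimb) and 4.10 (hindlimb) (0.66 ± 0.768, adjusted p = 0.46). The penis thus carried both *Tbx4* and *Tbx5*, and the tests of *Pitx1* and *Tbx5* also hang on which limb is used. Against the forelimb alone *Pitx1* rose by 6.11 (adjusted p = 2.9e-13), and against the hindlimb alone it had -0.79, under the fold limit. Against the hindlimb alone *Tbx5* rose by 3.84 (adjusted p = 9.4e-13), and against the forelimb alone it had -0.26, under the fold limit. In such a fit the lone limb library is assumed to vary like the penis libraries. *Hand2* was at 34.1 to 36.1 CPM against 41.2 and 48.5 (-0.37 ± 0.0733), below the fold limit.

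Of the steroid genes, *Srd5a2* (5.55) and the estrogen receptor gene *Esr1* (4.04) rose, and the progesterone and mineralocorticoid receptor genes *Pgr* (-2.14) and *Nr3c2* (-1.90) fell. Of 13 posterior *Hox* genes, *Hoxa13* (1.41) and *Hoxc13* (1.88, at most 0.334 CPM) rose and *Hoxd9* (-1.33) fell. *Hoxc11* was at 26.9 to 28.4 CPM in the penis, 13.3 in the hindlimb and 0.0532 in the forelimb (2.03 ± 0.876, adjusted p = 0.063).

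Among the signaling lists, Hedgehog genes had 0 higher and 2 lower of 12 (*Gli3* -1.09, *Ihh* -1.61 at under 1 CPM), FGF genes 2 and 4 of 14 (*Fgf9* 1.85, *Etv5* -1.65), BMP genes 4 and 0 of 16 (*Msx1* 2.41, *Msx2* 2.35, *Bmp4* 1.51) and Wnt genes 8 and 2 of 19 (*Sfrp2* 1.98, *Dkk1* -4.80). Cartilage and bone genes had 3 and 6 of 15, with *Runx2*, the bone master regulator, at 8.67 to 13.8 CPM in the penis against 35.5 and 36.4 (-1.69 ± 0.138), a call lost at -0.64 when the gene limits of the cell filter were read as UMI limits. *Sox9* was at 94.7 to 98.8 CPM against 46.7 and 58.1 (0.86 ± 0.0825), under the fold limit, and passed it at 1.02 without the hindlimb. Smooth muscle genes had 5 and 0 of 12, and fibroblast genes 11 and 1 of 14 (*Ccl19* 9.36, *Col15a1* 5.78). Cell division genes had 0 and 18 of 19 (median -1.51).

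The second comparison asked which other genes differ between penis mesenchyme cells with and without an *Isl1* UMI, in each library and at a fixed depth of 4000 UMIs per cell. The classes held 2354, 2462 and 2010 cells with and 1559, 1586 and 1337 without, and the sums of a library were paired in the fit. Of 15237 genes tested, 2.18% were higher and 2.39% lower in cells with an *Isl1* UMI (332 and 364 genes), and 675 of the 696 moved the same way in each library. Without the pairing by library, 183 genes passed (71 higher, 112 lower). The changes were small, with a median log2 fold change of 0.22 among the higher and -0.29 among the lower genes.

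Among genes of at least 20 CPM, the highest was *Rbfox1*, a splicing factor gene, at 25.7, 22.4 and 22.4 CPM with and 12.8, 11.03 and 10.7 CPM without an *Isl1* UMI (log2 fold change 1.02 ± 0.111, adjusted p = 8.2e-09). *Gpc5*, which encodes a glypican (0.66), the kinase gene *Stk32a* (0.60) and *Dok5* (0.52) were also higher. *Alx1* was at 53.4, 46.6 and 46.1 CPM with and 36.6, 35.5 and 30.7 CPM without (0.50 ± 0.0716, adjusted p = 3.5e-06). *Gpr149*, *Pax3*, *Orm3*, *Sema5b* and *Fibin* rose by 0.47 to 0.50. *Gpr149* and *Pax3* were lost without penis library 1 (0.39 each, adjusted p = 0.093 and 0.098). The hemoglobin gene *Hba-a1* rose by 0.51 together with red blood cell markers (3 of 7 tested higher, summed 390.9, 909.3 and 491.9 CPM with and 322.2, 771.1 and 338.3 CPM without), but its direction turned at 2000 UMIs per cell (-0.30). The part of free red cell RNA in it was not tested. Some other calls also rested on the depth: at 2000 UMIs per cell *Gpc5* had 0.05 (adjusted p = 0.96), *Pax3* 0.07 (0.92) and *Rbfox1* 0.45 (0.12), and *Gpc5* had 0.09 (0.75) with 1 marker more in the gate. *Orm3* and *Sema5b* had 0.39 and 0.32 at 2000 UMIs. Each passed in 8 of 9 alternative settings that gave an adjusted p (up to 0.095 and 0.33).

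Among called genes of at least 20 CPM the lowest was *Itih5*, a matrix protein gene, at 21.7, 18.7 and 22.0 CPM with and 39.6, 41.9 and 33.5 CPM without (-0.90 ± 0.0913, adjusted p = 1.8e-09). *Pclaf*, which works with PCNA in DNA replication (-0.83), the angiotensin receptor gene *Agtr2* (-0.81), smooth muscle actin *Acta2* (-0.77) and *Prg4*, which encodes lubricin (-0.75), were also lower. *Igfbp6*, an IGF-binding protein gene, was at 67.8, 73.6 and 54.5 CPM with and 113.2, 105.1 and 105.8 CPM without (-0.72 ± 0.0577, adjusted p = 3.4e-12). *Runx1* (-0.71) and *Nckap5* (-0.72) completed the set. At 2000 UMIs per cell *Nckap5* (-0.21, adjusted p = 0.61), *Acta2* (-0.25, 0.65), *Runx1* (-0.31, 0.14) and *Agtr2* (-0.46, 0.11) no longer passed.

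**Figure D3:**
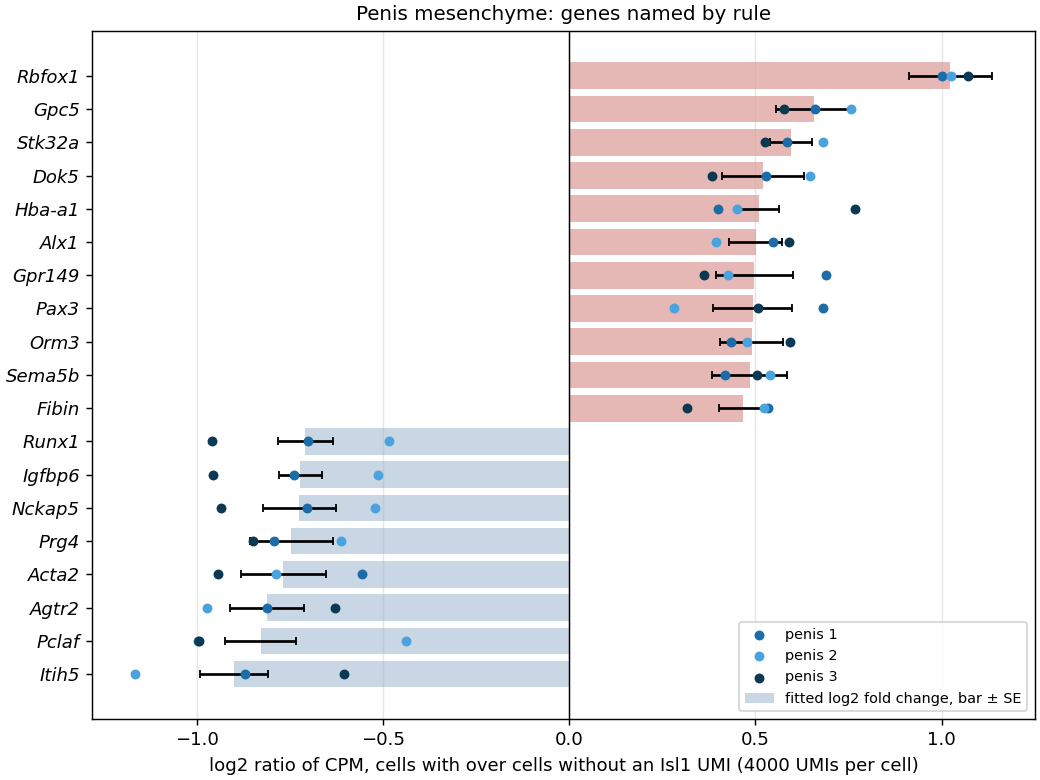
Log2 ratio of CPM between penis mesenchyme cells with and without an *Isl1* UMI (x axis) for genes named by rule (y axis), as the fitted value with its SE (bar) and the 3 libraries (points). The rule took genes whose 3 libraries lie on the same side of 0, and the fitted values run from *Rbfox1* (1.02) to *Itih5* (-0.90).

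The fibroblast list had 4 higher and 7 lower of 14, among them genes of the marker pairs above, read in the same cells and so no separate support. Of the lower ones, *Cd34* (-0.13) was lost with any library left out (adjusted p = 0.063 to 0.19) and *Dpt* (-0.10) without library 1 or 2 (0.31 and 0.28). *Angpt2* was at 167.8, 164.9 and 164.7 CPM with and 133.7, 133.0 and 122.7 CPM without (0.35 ± 0.0414), and *Ccl19* rose by 0.32, a call lost at 2000 UMIs (0.13, adjusted p = 0.57), without the pairing (0.31, 0.054) and with DESeq2 (0.30, 0.16). *Clec3b* was at 86.9, 87.9 and 87.2 CPM with and 118.5, 128.2 and 111.4 CPM without (-0.46 ± 0.0479), and *Pi16* (-0.39) and *Aspn* (-0.37) fell. The patterning factors had 8 higher and 1 lower of 22: *Alx1*, *Tbx5* (0.26 ± 0.0607) and *Irx5* (0.25) were among those that rose, and *Tbx15* fell (-0.36 ± 0.104). *Tbx4* was at 152.2, 145.6 and 165.5 CPM with and 138.4, 134.9 and 142.1 CPM without (0.15 ± 0.0413, adjusted p = 0.023). Several of these calls rest on single libraries or settings. Over 10 alternative settings *Tbx4* passed in 6, *Tbx5* in 5 and *Irx5* in 4 (adjusted p up to 0.60, 0.78 and 0.89). *Tbx15* passed in 5 of 9. *Tbx4* was lost without library 1 (adjusted p = 0.082) or 3 (0.25), *Tbx5* without 3 (0.058), *Irx5* without 1 (0.15) and *Tbx15* without any of the 3 (0.051 to 0.28), with the direction kept.

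Of the steroid genes, *Srd5a2* rose by 0.22 (adjusted p = 0.0042, and 0.059 without library 2) and *Ncoa1*, a steroid receptor coactivator gene, by 0.24. *Srd5a2* passed in 6 of 10 alternative settings (adjusted p up to 0.40) and *Ncoa1* in all 10. Of 12 LIM genes, *Lmo4* (0.15) and *Ssbp2* (0.12, lost without library 1 or 3, adjusted p = 0.15 and 0.11) were higher. Of 10 alternative settings, *Lmo4* passed in 8 (adjusted p up to 0.25) and *Ssbp2* in 4 (up to 0.49). *Ldb1* (0.09 ± 0.0626), *Isl2* (-0.10 ± 0.155), *Hand2* (-0.07 ± 0.0778), *Pitx1* (-0.03 ± 0.0644) and *Sox9* (-0.00 ± 0.0536) did not pass the test.

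Cartilage and bone genes had 0 higher and 3 lower of 14. *Runx2* was at 7.01, 10.1 and 10.8 CPM with and 13.95, 17.5 and 19.1 CPM without (-0.86 ± 0.126, adjusted p = 4.9e-06). Its direction was kept, but it no longer passed at 2000 UMIs (-0.07, adjusted p = 0.95), at 6000 UMIs (-0.32, 0.20) or with 1 marker more in the gate (-0.39, 0.051). *Spp1*, the osteopontin gene, fell by 0.79 at under 13 CPM, a call lost without library 1 (-0.48, adjusted p = 0.36), and its direction turned at 6000 UMIs (0.095) and with 1 marker more in the gate (1.16). Cell division genes had 0 higher and 6 lower of 19 (median -0.28), among them *Mcm5* (-0.54, lost without library 1 or 3, adjusted p = 0.38 and 0.12), *Tyms* (-0.42, lost without 3, 0.25) and *Mcm6* (-0.40, lost at 2000 UMIs, 6000 UMIs and with 1 marker more, -0.15 to -0.23, adjusted p = 0.15 to 0.53). *Mki67* (-0.28, adjusted p = 0.048) was lost without library 1 or 3 (0.37 and 0.24) and turned direction at 6000 UMIs (0.22).

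Of the signaling lists, Wnt genes had 3 higher and 2 lower of 17. *Notum*, which encodes a Wnt inactivating enzyme, was at 4.78, 3.35 and 3.48 CPM with and 13.3, 11.03 and 10.1 CPM without (-1.57 ± 0.171, adjusted p = 8.6e-09), and the Wnt antagonist gene *Dkk2* rose by 0.26. BMP genes had 3 and 1 of 16 (*Msx2* 0.43, *Bmp2* -0.37), FGF genes 0 and 1 of 13 (*Spry1* -0.45, lost without library 1, adjusted p = 0.18). Hedgehog genes had 1 and 0 of 10 (*Cdon* 0.16, lost without library 3, adjusted p = 0.29). Posterior *Hox* genes had 1 and 0 of 12 (*Hoxa10* 0.20, lost without library 1 or 2, adjusted p = 0.13 and 0.14) and smooth muscle genes 1 and 1 of 12. Over the alternative settings, *Msx2* and *Bmp2* each passed in 8 of 9 (adjusted p up to 0.085 and 0.10). *Spry1* passed in 6 of 9, *Cdon* in 5 of 10 and *Hoxa10* in 3 of 10. Among cell type markers used for gates, 4 of 10 chondrocyte and 2 of 6 pericyte markers tested were lower and none higher. The chondrocyte markers summed to 221.8, 240.3 and 236.3 CPM with and 254.0, 227.6 and 285.0 CPM without, so library 2 went the other way. The pericyte markers summed to 146.2, 142.5 and 150.5 CPM with and 156.5, 154.2 and 177.6 CPM without. Of 10 mesenchyme markers 1 was higher and 3 were lower, and they summed to 5589, 5377 and 5479 CPM with and 5755, 5642 and 5885 CPM without. Of 7 bone-forming markers tested 2 were lower and none higher (summed 74.2, 73.5 and 74.8 CPM with and 88.5, 79.6 and 89.6 CPM without).

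Gene length moved with this split. Of 2267 genes that span at least 100 kb, 192 were higher and 68 lower, and of 6728 genes under 20 kb, 59 were higher and 192 lower. Long genes took 18.3, 17.8 and 19.6% of the UMIs of cells with and 17.5, 17.3 and 18.6% of those without. *Isl1* itself spans 11.4 kb. The share of mitochondrial UMIs was 2.24 to 2.36% with and 2.19 to 2.31% without, and that of the nuclear RNA *Malat1* 2.86, 2.93 and 2.96% with and 2.75, 2.70 and 2.73% without, higher with in each library. The part of gene length and of nuclear RNA in these calls was not tested.

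Keratinocytes are the epithelial type with a high level, and their cells were split in the same way at 2000 UMIs, a comparison added after the data were seen. The classes were small, 49, 64 and 41 cells with and 176, 202 and 149 without. Of 4038 genes tested, 0.718% were higher (29 genes) and 3.22% lower (130 genes). Without the pairing by library, 7 passed, all lower. *Idi1*, an enzyme of the cholesterol pathway, was at 51.0, 39.1 and 85.4 CPM with and 338.1, 336.6 and 114.1 CPM without (-2.40 ± 0.334, adjusted p = 1.1e-06), and *Scd1*, the fatty acid desaturase gene, fell by 2.39 and *Pdss1*, of ubiquinone synthesis, by 2.00. *Krt79*, a keratin of hair follicle and sebaceous ducts, had UMIs in 1 of 3 libraries with (0, 0 and 12.2 CPM) and 73.9, 64.4 and 36.9 CPM without. *Mgst1* was at 40.8, 46.9 and 109.8 CPM with and 397.7, 237.6 and 201.3 CPM without (-2.27 ± 0.315, adjusted p = 1.1e-06). *Psph*, *Cebpb* and *Bola3* fell by 2.14 to 2.36. In the cells with an *Isl1* UMI, the levels of all these lower genes rest on few UMIs. The sums there held only 49, 64 and 41 cells of 2000 UMIs each.

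The genes higher in these keratinocytes were mostly long. *Nckap5* was at 408.2, 367.2 and 390.2 CPM with and 264.2, 113.9 and 181.2 CPM without (0.97 ± 0.214, adjusted p = 0.0017), and *Egfr*, the receptor of epidermal growth factor, at 224.5, 359.4 and 341.5 against 147.7, 118.8 and 174.5 CPM (0.95 ± 0.23). *Fgf14*, *Parp8*, *A830018L16Rik*, *Fat1*, *P3h2*, *Ehbp1*, *Thsd7a*, *Zfp292* and *Rad51b* rose by 0.90 to 1.44. Each of these genes lost its call when 1 library was left out, library 1, 2 or 3 depending on the gene. The adjusted p was then 0.054 to 0.45 and the direction was kept. *Parp8* was lost without library 1 and also without 2, and *P3h2*, *Ehbp1* and *Zfp292* without 1 and also without 3. Over the alternative settings that gave an adjusted p, these genes passed in only 2 to 4 of 8 or 9. Under other settings the direction turned for *Parp8* (-0.18) and *P3h2* (-0.28) with 1 marker more in the gate, and for *P3h2* (-0.40) and *A830018L16Rik* (-0.11) at 1000 UMIs. Of the lower genes, *Idi1*, *Psph*, *Cebpb* and *Mgst1* passed with each library left out. Over all alternative settings *Idi1* and *Cebpb* passed in 8 of 9 (adjusted p up to 0.33 and 0.14), and *Idi1* ran from -3.05 to -0.99. For *Krt79*, *Scd1* and *Pdss1* the fit without library 3 alone gave a value, and they passed in it, and for *Bola3* the fit without library 2 alone did, where it did not pass (adjusted p = 0.15). Of the fixed lists, 1 gene was called, the homeobox gene *Meis2* (0.67, and adjusted p = 0.060 without library 1). It passed in 6 of 10 alternative settings, with values down to 0.35 and adjusted p up to 0.19. Of genes of at least 100 kb, 22 were higher and 2 lower of 866, and of genes under 20 kb, 1 and 122 of 1550. Ribosomal genes took 30.8, 29.7 and 28.0% of UMIs with and 34.7, 34.7 and 31.8% without. Mitochondrial UMIs took 2.91, 2.96 and 3.50% with and 2.47, 2.62 and 2.71% without, and *Malat1* 1.23, 1.35 and 1.48% with and 0.948, 0.986 and 1.28% without. The cells with an *Isl1* UMI had a median of 11190 to 14642 UMIs before thinning against 8433 to 10718. The part of these in the calls was not tested.

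In the hindlimb, the 181 mesenchyme cells with an *Isl1* UMI were set beside the 10870 without. With 1 library there is no test, and intervals are 95% exact Poisson intervals for counting error. The cells with an *Isl1* UMI were somewhat deeper, with a median of 7118 against 6034 UMIs.

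*Hgf*, the hepatocyte growth factor gene, stood at 54.0 CPM (43.1 to 66.7) against 8.76, *Igfbp3* at 353.5 against 102.3 and the neuregulin gene *Nrg1* at 841.0 against 249.3. The glutamate receptor gene *Grik2* stood at 212.0 CPM (189.9 to 236.0) against 37.1, the channel gene *Trpc5* at 109.2 against 18.9, and the choline transporter gene *Slc5a7* at 19.0 (12.8 to 27.2) against 1.27. The neurofilament genes *Nefm* (203.1 against 39.9 CPM) and *Nefl* (156.8 against 32.5 CPM) belong to the neuron marker list. Over the 10 genes of that list, 5 were higher and 5 lower, with *Stmn2* at 1.90 against 22.7 CPM and *Snap25* and *Th* at 0 UMIs in the cells with *Isl1*. The list summed to 408.8 CPM with and 129.8 CPM without, and neuron RNA as a part of these differences was not tested. The embryonic globin genes *Hbb-y* (15.2 against 96.5 CPM) and *Hba-x* (5.71, 2.61 to 10.8, against 33.1) were lower in the cells with *Isl1*, and the part of free red cell RNA was not tested.

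Of the patterning genes read here, *Pitx1* (137.7 CPM, 120.0 to 157.3, against 87.8), *Hand2* (68.5, 56.2 to 82.8, against 48.1), *Hoxa10* (120.0 against 80.1) and *Hoxc11* (26.7, 19.2 to 36.03, against 12.98) were higher, and *Tbx4* (38.7, 29.6 to 49.7, against 36.6) was not distinguishable. Of the 14 posterior *Hox* genes, *Hoxa10*, *Hoxa11* (39.99, 30.7 to 51.2, against 25.6) and *Hoxc11* were higher, *Hoxa13* (11.4 against 21.8), *Hoxd9* (0.635 against 5.95), *Hoxd10* (3.81 against 11.5), *Hoxd12* (3.81 against 9.26) and the distal gene *Hoxd13* (13.3 against 47.7) were lower, and the intervals of the other 6 overlapped, *Hoxc12* and *Hoxc13* being at 0 UMIs with *Isl1*. Outside the *Hox* genes, the dorsal gene *Lmx1b* stood at 6.35 (3.04 to 11.7) against 33.7. *Sox5* (13.3 against 67.9 CPM), *Dach1* (24.8 against 112.0) and *Runx2* (8.25 against 36.9) were lower as well.

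**Figure D4:**
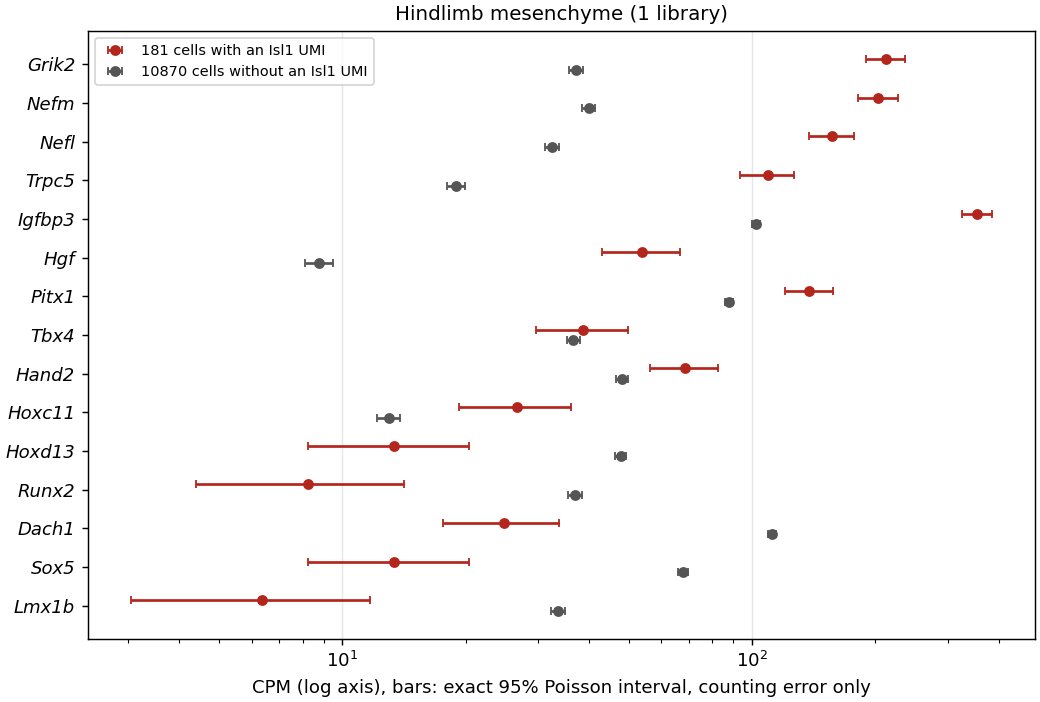
Level (CPM, log axis) of 15 genes in hindlimb mesenchyme cells with (red, 181 cells) and without (gray, 10870 cells) an *Isl1* UMI, with exact 95% Poisson intervals. *Hgf* and *Grik2* stand to the right in the red points and *Sox5*, *Dach1* and *Lmx1b* to the left, and the *Tbx4* intervals overlap.

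Of 11 protein-coding genes within 2 Mb of *Isl1* on either side, 10 are in the files. *Emb*, 899 kb away, which encodes the adhesion protein embigin, was at 104.8, 94.3 and 101.2 CPM in penis mesenchyme against 9.58 and 9.20 in the limbs (3.39 ± 0.0695, adjusted p = 4.1e-09), and it was higher in penis mesenchyme cells with an *Isl1* UMI (0.34 ± 0.0482, adjusted p = 3.8e-06). The integrin gene *Itga2* at 1366 kb (1.82) and *Fst*, the follistatin gene at 1839 kb (1.74), rose in the penis too. Over all genes tested, 13.3% rose. *Ndufs4* (0.64), *Mocs2* (0.58), *Itga1* (0.97) and *Pelo* (-0.54) stayed under the fold limit. *Fst* was also higher in mesenchyme cells with an *Isl1* UMI (0.20 ± 0.0301). *Itga2*, *Ndufs4*, *Mocs2*, *Itga1*, *Pelo* and *Parp8* did not pass in that split. *Emb* did not pass in the keratinocyte split (0.48, adjusted p = 0.61). Alternative settings for *Emb* and *Fst* are not reported. *Parp8*, the nearest gene at 545 kb, was at 99.7 to 107.2 CPM in the penis against 116.2 and 136.2 (-0.32 ± 0.0678), under the fold limit.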

How the data were processed

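Single cell suspensions of 3 P6 penises, 1 forelimb and 1 hindlimb library were processed with the 10x Genomics 3′ kit. The authors deposited filtered matrices of UMI counts per gene and cell, made with Cell Ranger 7.0.0 on mm10; whether intronic reads were counted is not given in the sources used here. The study states its limits in reads per cell. They were read here as genes per cell, since read as UMIs they keep 1625 to 2154 cells per penis library in place of 5708 to 7085, and that reading gives 3049 in place of 5432 genes between penis and limb and 94.3 in place of 146.0 CPM of *Isl1* in keratinocytes. Kept were penis cells with 500 to 6000 genes and at most 5% mitochondrial UMIs, forelimb 100 to 9000 and hindlimb 100 to 9500 genes with at most 10%, and a ratio of log10 genes to log10 UMIs of at least 0.8. Cell types were assigned to 18 classes by marker gates, and counts were summed per library and type.

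Sums were tested in edgeR 4.0.16 (quasi-likelihood F test, TMM, Benjamini-Hochberg adjusted p of at most 0.05), with at least 1 log2 unit of change for penis against limb. For cells with and without an *Isl1* UMI, each cell was thinned to 4000 (mesenchyme) or 2000 UMIs (keratinocytes), *Isl1* was left out, and library was a block, since both sums come from the same cells' library. Genes named in these splits were the 12 most raised and 8 most lowered among those called, moved the same way in all 3 libraries and averaging at least 20 CPM in the higher class. For the hindlimb, the 12 highest and 10 lowest ratios were taken, with 5 CPM added, at least 30 UMIs to be named as higher and 20 CPM without to be named as lower. Some genes that these rules name are not reported here. The scripts were tested on simulated data. DESeq2 1.42.0 was an alternative. The gene and the lists were chosen with earlier results of these data known. The keratinocyte split, the alternatives to the likeness ranking and the marker lists beside the splits were added after the data were seen. Where nothing says that libraries came from separate animals beyond the labels, p-values refer to these libraries only. For penis against limb they measure the spread between libraries, which takes in the difference between forelimb and hindlimb. In the splits library was a block. There they measure how the difference within a library varied from library to library, counting error included. Promoter sequence and counts are from RefSeq (GRCm38.p6), gene models from GENCODE vM21.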

Additional observations from a re-analysis of the deposited data

Results flagged for a closer look

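The split by an *Isl1* UMI was compared between penis keratinocytes and penis mesenchyme, both at 2000 UMIs per cell, by an interaction term in edgeR, a comparison added after the data were seen. Of 12921 genes tested, 218 differed, 13 with a higher and 205 with a lower log2 fold change in keratinocytes, and of 39 genes named by rule 12 differed. These 39 were named for large changes in one of the splits, so that count is a description. The keratinocyte split alone had enough counts to test 4038 genes. Many of the 12921 thus entered through the larger mesenchyme sums and had few counts in keratinocytes. Most genes named in mesenchyme, such as *Dok5*, *Prg4*, *Gpc5* and *Pax3*, had no fold change of their own in keratinocytes. Neither count is therefore a share of genes that could differ. The values that follow are the keratinocyte minus the mesenchyme log2 fold change with edgeR's adjusted p.

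*Nckap5*, *Fat1*, *Ehbp1* and *Egfr* differed upward, by 1.02 (adjusted p = 0.00098), 1.14 (0.014), 0.98 (0.049) and 0.97 (0.00064). *Nckap5* had opposite signs, -0.21 in mesenchyme and 0.97 in keratinocytes. *Idi1* (-2.39, 3.1e-09), *Scd1* (-2.59, 0.0062), *Psph* (-2.41, 4.2e-05), *Cebpb* (-2.49, 9.1e-06), *Mgst1* (-2.52, 1.7e-14), *Bola3* (-2.35, 0.015) and *Pdss1* (-2.28, 0.012) differed downward. The hemoglobin gene *Hba-a1* differed by -1.21 (3.2e-05), and red blood cell markers summed lower in the keratinocytes with an *Isl1* UMI in each library. The levels of the genes from *Idi1* to *Pdss1* rest on few UMIs in the keratinocytes with an *Isl1* UMI. Gene length and depth moved with the keratinocyte split, and their part was not tested.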

How the results depend on the processing

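The wide gap in *Isl1* between penis and limbs was present under each cell filter and gate tried. With all barcodes the penis libraries 1 to 3 had 172.7, 175.2 and 181.2 CPM, and with the gene limits read as UMI limits 174.5, 176.5 and 187.4. Penis mesenchyme had 256.0 CPM with UMI limits, 242.7 with 1 marker more and 255.0 with 1 fewer. Its share of cells with a UMI was 81.2% with all barcodes, 58.5% with UMI limits, 82.0% with 1 marker fewer, and 21.7, 38.1 and 60.0% when thinned to 1000, 2000 and 4000 UMIs. Keratinocytes had 94.3 CPM and 17.4% with UMI limits, 56.0% with 1 marker more, 44.2% with 1 fewer, and 11.5, 21.9 and 40.9% when thinned. Endothelial cells had 7.79 CPM with UMI limits, and 0.715, 0.971 and 1.78% when thinned. The likeness list kept 5 of its 8 genes with log2(CPM + 10) and 5 to 8 with a library left out.

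Penis against limb gave 3049 genes (1655 higher, 1394 lower) with UMI limits and 5393 to 5699 with a library left out (2646 to 2828 higher, 2747 to 2944 lower). No paired analysis was possible, because the penis libraries come from P6 mice and the limb libraries from embryos. The mesenchyme split gave 132 genes (73 and 59) with DESeq2, 221 (107 and 114) at 2000 UMIs, 590 lower at 6000 UMIs and 469 to 652 (225 to 290 and 244 to 362) with a library left out. Without the replicate block, which pairs the sums of a library, it gave 183 (71 and 112) and the keratinocyte split 7 (0 and 7). The keratinocyte split gave 72 (4 and 68) with DESeq2, 26 (4 and 22) at 1000 and 45 (8 and 37) at 4000 UMIs, 89 (17 and 72) with 1 marker more, 6 higher and 204 lower with no filter on low counts, and 92 to 152 (21 to 31 and 71 to 121) with a library left out. Among genes called in the main or the alternative fit, directions turned in mesenchyme for *Hba-a1* (-0.30 at 2000 UMIs) and for *Spp1* with 1 marker more (1.16). At 6000 UMIs they turned for *Sox9* (0.16), *Eya1* (-0.027), *Spp1* (0.095) and *Mki67* (0.22). In keratinocytes they turned for *Parp8* (-0.18) and *P3h2* (-0.28) with 1 marker more and for *A830018L16Rik* (-0.11) and *P3h2* (-0.40) at 1000 UMIs. The cause was not tested. Of the other values of single genes, 495 in mesenchyme and 112 in keratinocytes kept their call or lack of one. A further 172 and 80 kept direction but lost the call, and 27 and 23 had no adjusted p from DESeq2 and are not counted. Genes that passed in neither fit count as kept even where their direction turned. In mesenchyme this holds for *Hand2* (-0.12 to 0.11), *Isl2* (-0.19 to 0.21) and *Pitx1* (-0.27 to 0.016). Depth limits the splits, since a low level of *Isl1* leaves many cells without a UMI.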

Other observations

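Hindlimb chondrocytes with an *Isl1* UMI, 70 cells against 2932 without, were read in the same way as hindlimb mesenchyme, from 1 library and with no test. The cells with a UMI were deeper, with a median of 8194 against 5307 UMIs. *Pitx1* stood at 146.7 CPM (exact 95% Poisson interval 119.9 to 177.8) against 87.9 and *Igfbp3* at 134.0 against 37.6, each higher as in mesenchyme. *Tbx4* (53.6 against 54.0 CPM) and *Sox9* (633.5 against 611.6) lay close together. *Runx2* (73.4 against 145.2 CPM), *Col10a1*, the collagen of hypertrophic cartilage (12.7 against 83.8), and *Msx1* (4.23 against 50.003) were lower, and *Barx1* had 0 UMIs against 20.04 CPM. *Cadps* (104.4 against 15.8 CPM), *Nrxn3* (73.4 against 15.0) and *Grm7* (206.0 against 54.7) were higher and *Cntn5* (1.41 against 46.5) and *Cadm2* (45.1 against 311.1) lower. The embryonic globin genes *Hba-x* (1 UMI, 1.41 CPM, 0.0357 to 7.86, against 50.8) and *Hbb-y* (18.3 against 152.7) were lower too, and the part of free red cell RNA was not tested. The neuron marker list summed to 121.3 CPM with and 54.4 without, and its part was not tested.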
